A study of Homo sapiens with 3 samples.

Results

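The genes described here are the Wnt ligands, the receptors and co-receptors that bind them, and the secreted antagonists of the DKK and SFRP families, measured in H1975 lung cancer cells and in OR1 and OR2, which are lines selected from H1975 for resistance to osimertinib. The rule takes genes by symbol and uses no measured value, though it was set with earlier results of these data known. It holds every gene on the array named WNT, FZD, DKK1 to DKK4 or SFRP1 to SFRP5 together with LRP5, LRP6, ROR1, ROR2, RYK and PTK7. This gave 43 of the 43316 genes on the array: 19 ligands, 10 Frizzled receptors, 2 LRP co-receptors, 4 kinase-like receptors, 4 DKK genes and 4 SFRP genes. The RefSeq accession of each of the 43 probes used was found in a table of current RefSeq genes under the same symbol.

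Wnt proteins are secreted lipid-modified ligands that act over short distances. When a Wnt binds a Frizzled receptor together with LRP5 or LRP6, β-catenin escapes its destruction complex, enters the nucleus and drives transcription with TCF and LEF factors. Other Wnts, of which WNT5A is the best known, signal without β-catenin through Frizzled receptors and the kinase-like receptors ROR1, ROR2, RYK and PTK7, and act on cell polarity and movement. SFRP proteins bind Wnts outside the cell, and DKK1 blocks the LRP co-receptors.

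H1975 is a non-small cell lung cancer cell line that harbors mutated EGFR, and osimertinib is an inhibitor of the EGFR kinase. OR1 and OR2 were derived from separate flasks of H1975 by raising the osimertinib dose in steps to 2 µmol/L over 4 months, so each resistant line is a single selected population and both share the EGFR mutations of the parent. All cells were grown in RPMI medium with fetal bovine serum, and whether osimertinib was present when RNA was collected is not given in the sources used here. RNA of each line was hybridized to 1 Agilent single-colour array, on which the brightness of each gene-specific spot is its intensity. There was no replicate, so no p-value was computed and every ratio compares 1 culture with another. In RNA of a whole culture, fewer cells expressing a gene and less RNA per cell cannot be told apart.

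On each array 45.6% to 45.9% of 58200 probes were well above background as called by the scanner software, and no spot was saturated. A gene is called detected below where its probe was well above background. The lowest intensity called so was 11.4 in OR1 and 12.6 on the other arrays. Intensities were scaled to the 75th percentile of each array before ratios to H1975 were taken, so a ratio differs from the quotient of the intensities printed beside it. The difference matters for calls near the criterion. Without scaling, ROR1 was at 1.87 and WNT10A at 1.90 in OR1, against 2.13 and 2.16 with it. A side that was not detected was set to the lowest detected intensity of its array, or to its own value if higher, and the ratio is then a bound. The technical SD given for a ratio is on the log2 scale and comes from the scanner software's error of each spot, so it leaves out the variation between cultures. Beside a bound, it includes the error of the undetected spot at its own intensity and is not the error of the bound. As a check of the labelled cell type, 8 of 8 epithelial genes were detected in every line. Of these, EPCAM, CDH1, KRT7, KRT19, CLDN4 and CLDN7 were at a ratio of 0.5 or less in both OR1 and OR2, with CDH1 at 0.0205 and 0.0800, while KRT8 was at 1.12 and 0.964 and KRT18 at 0.884 and 0.806. The summed intensity of the 8 genes was 463787 in H1975 against 158363 in OR1 and 200969 in OR2, and its part in the Wnt results was not tested. Of 8 fibroblast genes, COL3A1, DCN, PDGFRA and THY1 were not detected on any array. The other 4 were detected on at least 1 and did not move together. COL1A2 was lower in both resistant lines, and COL1A1 was at 1.45 in OR1 and 0.183 in OR2. LUM was detected in OR1 alone, at a ratio of at least 5.43, and FAP in H1975 alone. The summed intensity over all 8 was 692 in H1975 against 690.2 in OR1 and 110.2 in OR2.

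Of the 43 genes, 24 were detected on at least 1 array and 19 on all 3. By role, 10 of 19 ligands, 8 of 10 Frizzled receptors, both LRP co-receptors, 3 of 4 kinase-like receptors, 1 of 4 DKK genes and 0 of 4 SFRP genes were detected. PTK7, ROR1 and WNT10A were higher in both resistant lines at a ratio of at least 2, the criterion of the study's methods. These are 3 of the 24 detected genes, or 12.5%, where 5.09% of the 22418 genes detected on at least 1 array met the same criterion. FZD1, FZD7, WNT5A, WNT7B and WNT9A were lower in both lines at a ratio of at most 0.5, which is 5 of 24 genes, or 20.8%, against 6.32% of all detected genes. OR1 taken alone had 3 higher and 6 lower genes of the family, where 8.95% and 9.34% of all detected genes met these ratios. OR2 taken alone had 5 higher and 5 lower, against 7.47% and 8.41% of all detected genes. Between the resistant lines, WNT11 was at least 2-fold higher in OR2 and no gene was as much lower, against 2.37% and 2.76% of all detected genes, or 5.13% in either direction. Both ratios use the same H1975 array, so an error on that array enters both lines alike. The remaining 13 detected genes met neither ratio in either line.

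Over the 19 genes detected on all 3 arrays, the median log2 ratio was 0.14 in OR1 and -0.10 in OR2, beside 0.03 and -0.05 over all genes detected on all 3 arrays. These medians leave out genes such as WNT5A, WNT9A and WNT11 that were not detected in every line, and the genes they cover lay on both sides of H1975. In the plot of intensities, the ligands WNT5A and WNT9A lie well above background in H1975 and near the limit of detection in OR1 and OR2. The 13 detected receptors were detected in all 3 lines, and 8 of them passed neither 2 nor 0.5 in either resistant line.

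**Figure D1:**
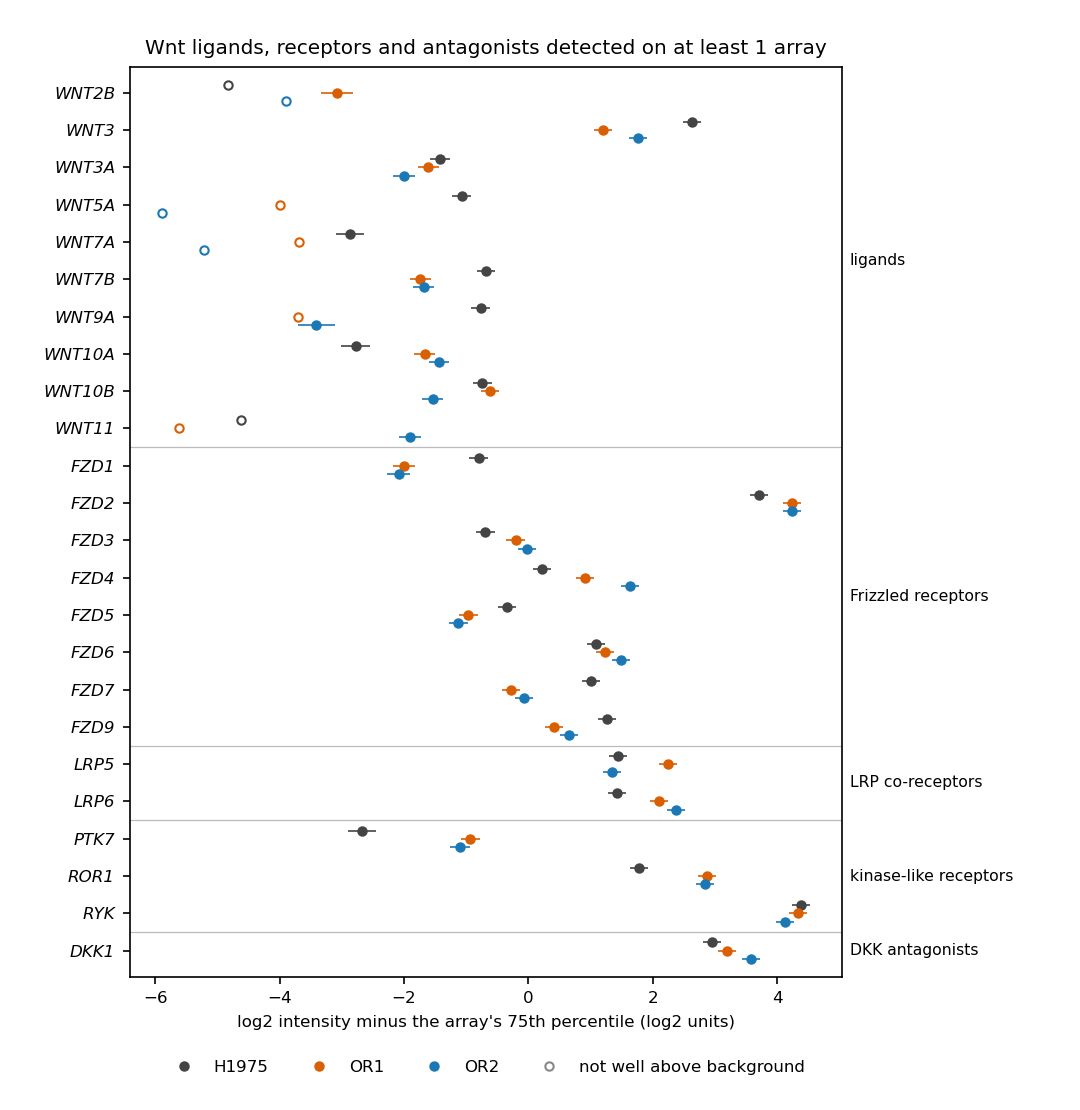
Log2 intensity of the 24 detected Wnt ligands, receptors and antagonists in H1975, OR1 and OR2, after subtraction of each array's 75th percentile (x axis, log2 units), 1 array per line. Bars are the scanner software's error of a single array, and open circles mark values not well above background, as for WNT5A in OR1 and OR2.

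The sequences behind the main values are given first. ROR1 was measured by 3 probes of 60 bases at different places along its transcripts, and PTK7 by a single probe. The leading 30 bases of each are shown, 5′ to 3′ as the files give them, with the base of the transcript where the probe begins, because the 3 ROR1 probes share no position and so measure the gene separately.
PTK7, NM_002821, base 3672: ccacctcttcctctatcagggacagtgtgg
ROR1, NM_001083592, base 1557: gacatcccagcttgcggtaaatagaagtca
ROR1, NM_005012, base 3214: atgcacaacttttgtaaatgtggtatacag
ROR1, NM_005012, base 5466: ttcagatctttttctccttttttgcacaaa
The PTK7 probe lies on chromosome 6 of hg19 from 43128858 to 43128917. On chromosome 1, the ROR1 probes lie from 64608318 to 64608377, from 64644540 to 64644599 and from 64646792 to 64646851. Among probes of other genes, the longest run of bases shared with a probe of any detected family gene was 17 (for WNT11), and 16 for a gene called in both lines (FZD7).

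Promoter sequence is shown for 2 ligands that were at or near the limit of detection in OR1 and OR2 and for 2 genes that were higher in both lines, so that their base composition can be compared. Each window is the 250 bases before a transcript start in RefSeq (GRCh38.p14), written 5′ to 3′ on the gene's strand, and capitals mark CACCTG, the word bound by ZEB and SNAI repressors.
WNT5A, chr3:55487307-55487556, minus strand: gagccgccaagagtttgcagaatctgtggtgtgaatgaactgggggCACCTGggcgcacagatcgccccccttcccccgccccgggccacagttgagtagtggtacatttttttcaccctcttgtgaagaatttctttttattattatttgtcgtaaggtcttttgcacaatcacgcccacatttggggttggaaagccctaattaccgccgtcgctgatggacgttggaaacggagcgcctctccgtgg
WNT5A, chr3:55481399-55481648, minus strand: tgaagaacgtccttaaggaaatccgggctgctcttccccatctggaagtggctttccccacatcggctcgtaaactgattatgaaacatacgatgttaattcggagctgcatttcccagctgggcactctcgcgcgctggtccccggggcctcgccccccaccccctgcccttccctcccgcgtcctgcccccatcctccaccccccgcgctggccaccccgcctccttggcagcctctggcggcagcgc
WNT9A, chr1:227947933-227948182, minus strand: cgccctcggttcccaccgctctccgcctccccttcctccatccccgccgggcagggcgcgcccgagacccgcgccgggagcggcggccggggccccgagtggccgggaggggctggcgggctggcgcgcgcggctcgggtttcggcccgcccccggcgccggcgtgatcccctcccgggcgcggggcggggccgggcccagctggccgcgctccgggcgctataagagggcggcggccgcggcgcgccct
ROR1, chr1:63773767-63774016, plus strand: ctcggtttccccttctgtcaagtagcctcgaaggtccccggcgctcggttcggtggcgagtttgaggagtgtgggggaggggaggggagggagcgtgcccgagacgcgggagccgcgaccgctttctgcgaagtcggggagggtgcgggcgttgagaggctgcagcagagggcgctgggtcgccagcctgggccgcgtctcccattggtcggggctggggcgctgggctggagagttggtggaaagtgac
WNT10A, chr2:218880602-218880851, plus strand: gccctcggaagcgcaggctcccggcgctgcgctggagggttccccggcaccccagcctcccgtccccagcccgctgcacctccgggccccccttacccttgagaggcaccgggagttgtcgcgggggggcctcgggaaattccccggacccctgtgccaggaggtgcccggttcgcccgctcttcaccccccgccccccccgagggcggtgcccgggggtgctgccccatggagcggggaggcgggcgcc
The WNT9A window was the richest in G and C of these, at 84.4% with 44 CpG dinucleotides, against a median of 58% and 11 over 35116 promoter windows of the same length and a 90th percentile of 75.2% and 31. WNT10A had 77.6% and 24 CpG, and ROR1 had 69.2% and 24. The windows of WNT5A were the poorest, at 52.8% with 14 CpG and 64.4% with 18. CACCTG, searched on both strands, was in 17.5% of all windows and in at least 1 window of 6 of the 30 family genes that have one. Of the genes called in both lines, 6 had a window, and FZD7 and WNT7B had none. Among these 6 genes, WNT5A alone held CACCTG. The words of TCF and LEF factors are CTTTGAA or, with another ending, CTTTGAT, and their further forms are CTTTGTA or, ending otherwise, CTTTGTT. Searched on both strands, they were in 12% of all windows, in 1 of the 30 genes and in 0 of the 6 called genes. The AP-1 words TGACTCA and TGAGTCA, which read as each other on the opposite strand, were in 4.2% of all windows and in 0 of the 30 genes. GGAATG, the word bound by TEAD factors, was in 11.9% of all windows, in 1 of the 30 genes and in 0 of the 6. A word in a window is a description of the letters and not evidence of a bound factor.

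Among the ligands called lower in both lines, WNT5A and WNT9A had the lowest ratios. WNT5A is the prototype of the ligands that act without β-catenin and is bound by ROR receptors. Its probe (NM_003392, chromosome 3 of hg19 from 55499800 to 55499859) gave 74.9 intensity units in H1975 against 8.65 in OR1 and 2.73 in OR2, so that it was detected in the parental line alone. OR1 had a ratio of at most 0.174 and OR2 of at most 0.164. The technical SDs of 0.45 and 1.45 are those of the spots as measured and not of these bounds. Such ratios or lower were reached by 1.68% of all detected genes in OR1 and 1.34% in OR2. WNT9A, a ligand known from joint development, was measured on chromosome 1 from 228109533 to 228109592 (NM_003395). Its intensity of 92.5 in H1975 compares with 10.6 in OR1, where it was not detected, and with 15.2 in OR2, just over the limit. The ratio was at most 0.141 in OR1 and 0.160 in OR2, with technical SDs of 0.40 and 0.33, and 1.26% and 1.28% of all detected genes lay as low. For both ligands the 2 resistant lines could not be ordered, since each lay at or near background in them.

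WNT7B, which drives lung epithelial growth in development, was lower in both lines by a smaller amount. Its brightest probe (NM_058238, chromosome 22 from 46318943 to 46319002) read 98.2 in H1975 against 41.4 in OR1 and 50.4 in OR2. The ratios were 0.481 and 0.499, each with a technical SD of 0.22 to 0.23, so both are within 1 SD of the criterion of 0.5. The other 2 WNT7B probes were also lower, at 0.466 in OR1 and at most 0.406 in OR2 for the probe at base 378, and at 0.587 and 0.336 for the probe at base 3446. The probes gave a lower WNT7B in both resistant lines at every position, and in OR1 the probe at base 3446 did not reach 0.5. WNT7A, its close relative, was detected in H1975 alone, at an intensity of 21.6, which allows ratios of at most 0.603 and at most 0.569.

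WNT3 and WNT3A are ligands of the β-catenin pathway. WNT3 (NM_030753, chromosome 17 from 44841704 to 44841763) read 979.8 in H1975 against 318.8 in OR1 and 546.8 in OR2. It was the lone gene of the family to pass a ratio of 0.5 in OR1 without doing so in OR2, at 0.371 and 0.543, with a technical SD of 0.20 in each. The ratio of OR2 to OR1 was 1.46, short of 2, so the call in 1 line does not mean a 2-fold difference between the lines. WNT3A was at 59.0, 45.3 and 40.5, with ratios of 0.875 and 0.667. Its second probe, at base 2892, lay near background, at 19.8 in H1975 against 7.52 in OR1 and 17.2 in OR2.

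A few ligands lay above the parent in 1 or both lines. WNT10A, a β-catenin ligand known from tooth and skin appendages, was the lone ligand higher in both lines. Its probe (NM_025216, chromosome 2 from 219758393 to 219758452) read 23.0 in H1975 against 43.6 in OR1 and 59.8 in OR2, all detected but dim. The ratios were 2.16 and 2.53 with technical SDs of 0.28, and 7.59% and 4.29% of detected genes lay as high. In OR1 the ratio lay within its technical SD of the criterion of 2. WNT11, a ligand of cell movement, was detected in OR2 alone, at 6.42, 2.82 and 43.2 (NM_004626, chromosome 11 from 75897586 to 75897645). Its ratio was at least 3.34 to H1975, with a technical SD of 0.72, and at least 3.23 to OR1, and 2.41% of detected genes lay as high in OR2. WNT10B was on opposite sides of the parent, at 94.4, 90.1 and 55.6, with ratios of 1.09 in OR1 and 0.573 in OR2, but the OR1 value was within its technical SD. WNT2B was detected in OR1 alone, at 5.56, 16.4 and 10.9, a ratio of at least 1.49. The other 9 ligands were not detected on any array, WNT5B among them, with intensities between 2.33 and 10.5.

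**Figure D2:**
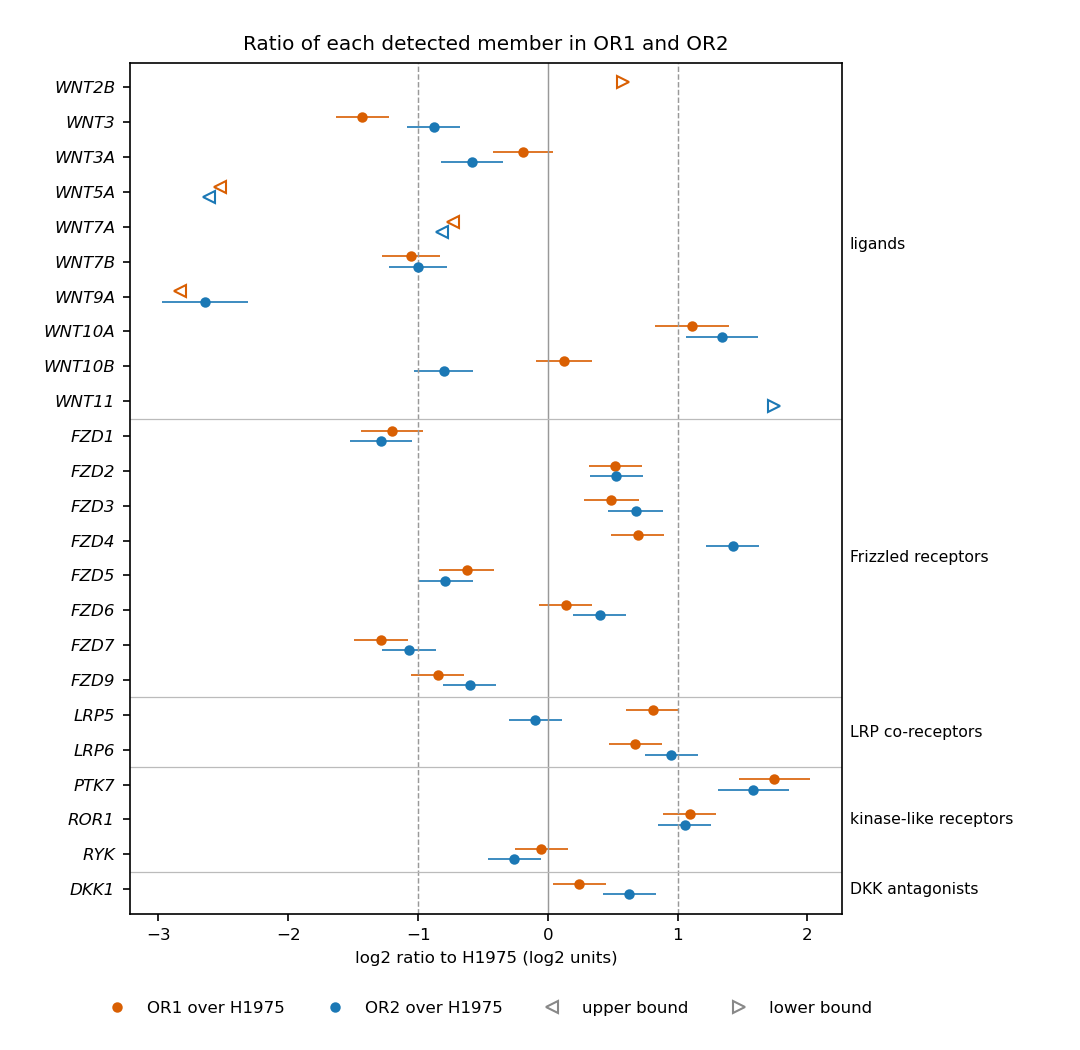
Log2 ratio of OR1 and OR2 to H1975 for the 24 detected genes (x axis, log2 units), with the technical SD as bars, open triangles for bounds and dashed lines at ratios of 2 and 0.5. Ligands are mostly to the left, with WNT5A and WNT9A below -2, and the kinase-like receptors PTK7 and ROR1 lie beyond the right line in both lines.

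The 10 Frizzled genes encode the seven-pass receptors that bind Wnts directly, and they split in direction. FZD1 and FZD7 were lower in both lines. FZD7 (NM_003507, chromosome 2 from 202902930 to 202902989) read 315.8 in H1975 against 113.5 in OR1 and 154.6 in OR2, with ratios of 0.410 and 0.477 and a technical SD of 0.21. FZD1 (NM_003505, chromosome 7 from 90897840 to 90897899) was at 90.5, 34.5 and 38.1, with ratios of 0.435 and 0.409 and a technical SD of 0.24. The ratio of FZD7 in OR2 and that of FZD1 in OR1 lay within their technical SD of the criterion of 0.5. The ratio of OR2 to OR1 was 1.16 for FZD7 and 0.941 for FZD1, so the resistant lines lay close to each other and away from the parent. FZD5 and FZD9 were also below H1975 without reaching 0.5. FZD5 was at 124.6, 70.7 and 74.0, with ratios of 0.648 and 0.578, and FZD9 was at 377.8, 183.9 and 255.7, with ratios of 0.555 and 0.659.

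FZD4, the receptor for norrin as well as for Wnts, had the highest ratio of the detected Frizzled genes. Its intensity was 182.7 in H1975 against 259.0 in OR1 and 503.5 in OR2 (NM_012193, chromosome 11 from 86656800 to 86656859). The ratio was 1.62 in OR1 and 2.68 in OR2, with technical SDs of 0.21, and 3.78% of detected genes lay as high in OR2. The ratio of OR2 to OR1 was 1.66. FZD2, FZD3 and FZD6 had ratios above 1 and up to 1.60. FZD2 was at 2067 in H1975 against 2595 in OR1 and 3060 in OR2, with ratios of 1.43 and 1.44, FZD3 was at 97.3, 119.8 and 159.7, and FZD6 at 334.8, 323.2 and 454.0, in OR1 within its technical SD of the parent. With the main scaling, 4 of the 8 detected Frizzled genes lay above a ratio of 1 and 4 below it in each resistant line. The same 4 were below in both, FZD1, FZD5, FZD7 and FZD9. The even split in OR1 depends on the scaling, since without it FZD6 also lay below the parent. Scaling on spike-in probes, given below, shifted OR1 by -0.60 on the log2 scale. That is more than the OR1 log2 ratios of FZD2 (0.52), FZD3 (0.49) and FZD6 (0.14), and it left FZD4 at a ratio of 1.07. FZD8 and FZD10 were not detected, with intensities of 2.45 to 5.11.

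LRP5 and LRP6 are the co-receptors that carry the β-catenin signal. LRP6 was at 422.0 in H1975 against 589.6 in OR1 and 838.3 in OR2, with ratios of 1.59 and 1.93, the latter just short of 2. LRP5 was at 426.0, 654.7 and 409.7, with ratios of 1.75 in OR1 and 0.936 in OR2, each with a technical SD of 0.20. LRP5 was thus above the parent in OR1 and within its technical SD of the parent in OR2, with an OR2 to OR1 ratio of 0.534.

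The kinase-like receptors held 2 of the 3 genes higher in both lines. PTK7 is a Wnt co-receptor of planar cell polarity with an inactive kinase domain. It read 24.6 in H1975 against 72.3 in OR1 and 75.7 in OR2, so the parental value was the dim one. The ratios were 3.35 and 2.99, with a technical SD of 0.27, and 2.90% and 2.91% of detected genes lay as high. Among family genes detected on all 3 arrays, PTK7 had the largest ratio in both lines.

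ROR1 is a receptor for WNT5A that most adult tissues lack and many cancers express. Its brightest probe (base 3214) was at 541.2 in H1975 against 1013 in OR1 and 1154 in OR2, with ratios of 2.13 and 2.08, a technical SD of 0.20, and 7.86% and 6.95% of detected genes as high. Both ratios of this probe lay within their technical SD of the criterion of 2. The probe at base 1557, the one assigned to the accession NM_001083592, was at 26.5, 62.7 and 77.6, with ratios of 2.70 and 2.85. The probe at base 5466 was at 153.1, 317.1 and 410.2, with ratios of 2.36 and 2.61. All 3 probes passed a ratio of 2 in both lines, and the brightest gave the smallest ratio. Among 4358 genes with more than 1 probe detected on all arrays, the log2 ratios of the probes of a gene differed by a median of 0.25 and by 0.87 in OR1 and 0.86 in OR2 at the 90th percentile, and the 3 ROR1 probes lay within that range of each other.

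**Figure D3:**
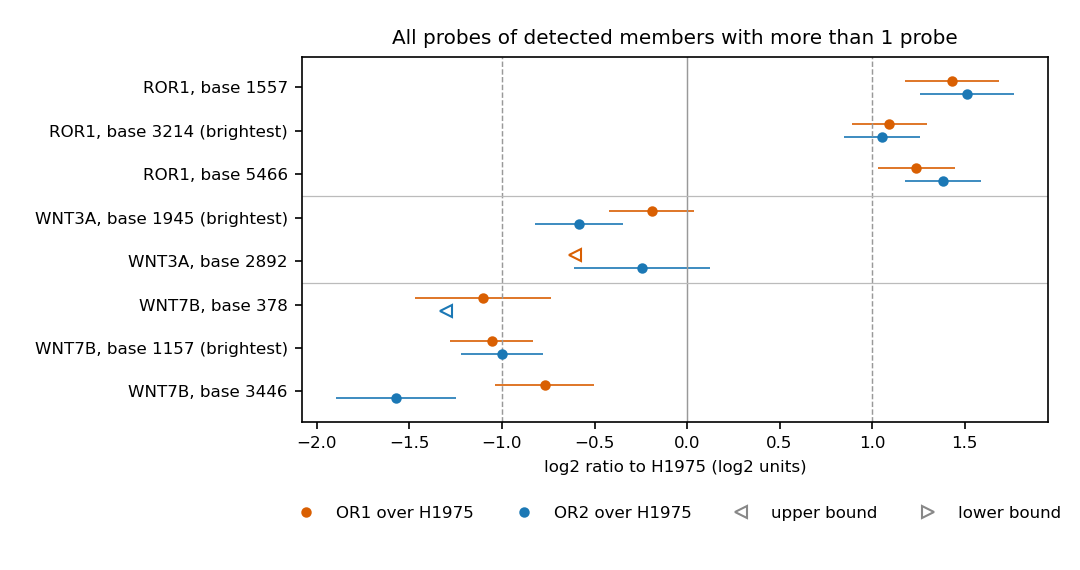
Log2 ratio to H1975 (x axis, log2 units) of each probe of the detected genes with more than 1 probe, by the base of the transcript where the probe begins, with the technical SD as bars and open triangles for bounds. The 3 ROR1 probes lie to the right of the line at 2 in both lines, the WNT7B probes lie on both sides of the line at 0.5, and the WNT3A probes lie between the lines.

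ROR2, the closest relative of ROR1, was not detected on any array, with intensities of 3.96 in H1975 against 7.29 in OR1 and 13.3 in OR2. RYK, an atypical Wnt receptor with an inactive kinase domain, was at 3289, 2786 and 2821, with ratios of 0.966 and 0.835, the former within its technical SD of 0.20. The antagonists were represented by a single gene. DKK1, which blocks LRP5 and LRP6, was at 1217 in H1975 against 1262 in OR1 and 1930 in OR2, with ratios of 1.18 and 1.54. DKK2, DKK3, DKK4 and the SFRP genes SFRP1, SFRP2, SFRP4 and SFRP5 were not detected on any array, and the highest intensity among them was 13.3, for DKK3 in OR2.

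Genes of a stretch of chromosome can move together, so each family gene was set beside the 20 nearest genes detected on all 3 arrays. FZD1 and FZD9, both on chromosome 7, lay among genes that were themselves lower. The median log2 ratio of the neighbours of FZD1 was -1.18 in OR1 and -0.68 in OR2, and FZD1 itself was at -1.20 and -1.29. The neighbours of FZD9 were at -1.24 and -0.68, and FZD9 at -0.85 and -0.60. FZD1 in OR1 and FZD9 in both lines were therefore close to the genes around them or less low, and FZD1 in OR2 was lower than them. Around the undetected WNT2 and WNT16, on the same chromosome, the medians were -1.08 and -0.77 in OR1 and -0.35 and -0.31 in OR2. What part the neighbourhood has in the FZD1 ratio was not tested.

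The other called genes lay among genes whose medians were far smaller than their own ratios or had the opposite sign. The neighbours of WNT5A had medians of 0.26 and 0.45 while WNT5A itself was at or below -2.53 and -2.61 on the log2 scale. For WNT9A the medians were 0.18 and -0.09, for FZD7 -0.15 and -0.22, and for WNT7B 0.23 and -0.06. ROR1 had neighbours at 0.06 and -0.06, and WNT10A at -0.18 and -0.36, opposite to its own ratio. PTK7 lay among genes that were somewhat higher, at 0.63 and 0.34, below its own 1.75 and 1.58. The neighbours of WNT3 were at -0.10 in OR1, and in OR2 those of FZD4 were at 0.27 and those of WNT11 at 0.31.

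**Figure D4:**
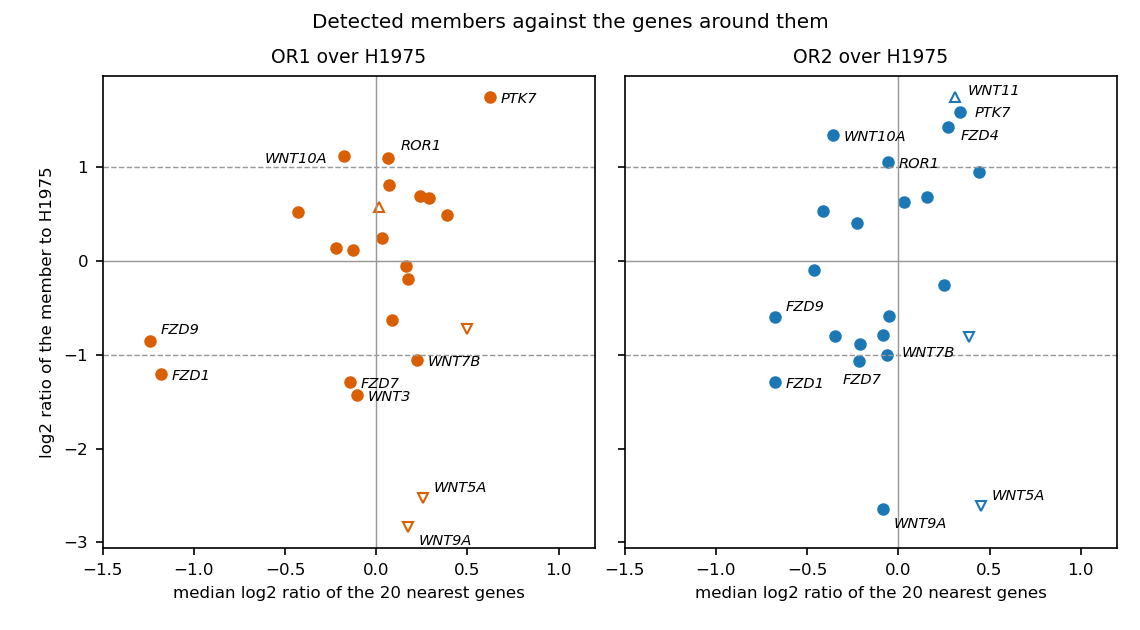
Log2 ratio to H1975 of each detected family gene (y axis, log2 units) against the median log2 ratio of its 20 nearest detected genes on the chromosome (x axis, log2 units), in OR1 (left) and OR2 (right), with open triangles for bounds and dashed lines at ratios of 2 and 0.5. FZD1 and FZD9 stand apart at the left, among genes that are lower as well, while WNT5A and WNT9A are low beside neighbours with medians between -0.09 and 0.45.

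The rest of the pathway was described through a list of 55 genes, of which 54 had a probe under their symbol and 41 were detected on at least 1 array. Of the 41, 2 were higher in both lines and 2 were lower in both, 4.88% each, beside the 5.09% and 6.32% of all detected genes. The higher genes were LGR4, a receptor for R-spondins that keeps Frizzled receptors at the cell surface, and APC2, a relative of the APC scaffold of the destruction complex. LGR4 was at 515.9 in H1975 against 941.0 in OR1 and 1468 in OR2, with ratios of 2.08 and 2.77, and APC2 at 27.8, 59.5 and 68.7, with ratios of 2.44 and 2.41. The lower genes were PORCN and TCF7. PORCN, the enzyme that attaches the lipid without which Wnts are not secreted, was at 6363, 2732 and 2982, with ratios of 0.490 and 0.456. TCF7, a transcription factor partner of β-catenin, was at 587.8, 32.8 and 93.5, with ratios of 0.0636 and 0.155. The ratios of PORCN in both lines and of LGR4 in OR1 lay within their technical SD of the criterion.

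Further pathway genes passed a ratio in OR1 without passing it in OR2. RNF43, a ubiquitin ligase that removes Frizzled receptors, was at 2.51 and 1.87. AXIN2, a feedback scaffold, was detected in OR1 alone at a ratio of at least 2.15. The brighter of its 2 probes was dim, at 6.90 in H1975, 23.7 in OR1 and 9.89 in OR2. KREMEN2, a DKK receptor, was at 0.304 and 0.640, and DAAM1, an effector of planar cell polarity, at 0.494 and 0.559. The ratios of DAAM1 in both lines and of RNF43 in OR2 lay within their technical SD of 0.20 of the criterion. Between the resistant lines, 2 of the 41 detected pathway genes were at least 2-fold higher in OR2 and 1 was as much lower. Among all detected genes, 2.37% and 2.76% met these ratios. The OR2 to OR1 ratio was 2.43 for TCF7, 2.11 for KREMEN2 and at most 0.454 for AXIN2. The median log2 ratio of the 37 pathway genes detected on all arrays was 0.14 in OR1 and 0.0049 in OR2. CTNNB1, which encodes β-catenin, was at 1.30 in OR1 and within its technical SD of the parent in OR2 by its mRNA, and WLS, which carries Wnts to the cell surface, at 0.876 and 1.05. The R-spondin genes RSPO1 to RSPO4, LGR5, LEF1, NOTUM and the antagonists WIF1, FRZB and SOST were not detected on any array.

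Among 15 genes known as transcriptional targets of β-catenin, 9 were detected, and some of these, TCF7, RNF43, AXIN2 and ZNRF3 among them, are also on the pathway list. SP5, a direct target that acts as a repressor, was higher in both lines, at 77.4 in H1975 against 313.9 in OR1 and 195.5 in OR2, with ratios of 4.63 and 2.46. TCF7 was lower in both lines. CCND1 was at 0.788 and 0.812 and CD44 at 1.30 and 1.31. By the criterion in both lines, 1 of 9 detected targets (11.1%) was called each way, beside 5.09% higher and 6.32% lower among all detected genes. Counted in OR1 whatever the ratio in OR2, 3 of the 9 were higher (SP5, RNF43 and AXIN2) and 1 was lower (TCF7). Among all detected genes, 8.95% and 9.34% met these ratios in OR1. AXIN2 lay near background, at 6.90 in H1975, 23.7 in OR1 and 9.89 in OR2. Counted in OR2 in the same way, 1 was higher (SP5) and 1 was lower (TCF7), where 7.47% and 8.41% of all detected genes met these ratios. With normexp correction SP5 was at 3.15 and 1.84, so that it no longer passed 2 in OR2.

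**Figure D5:**
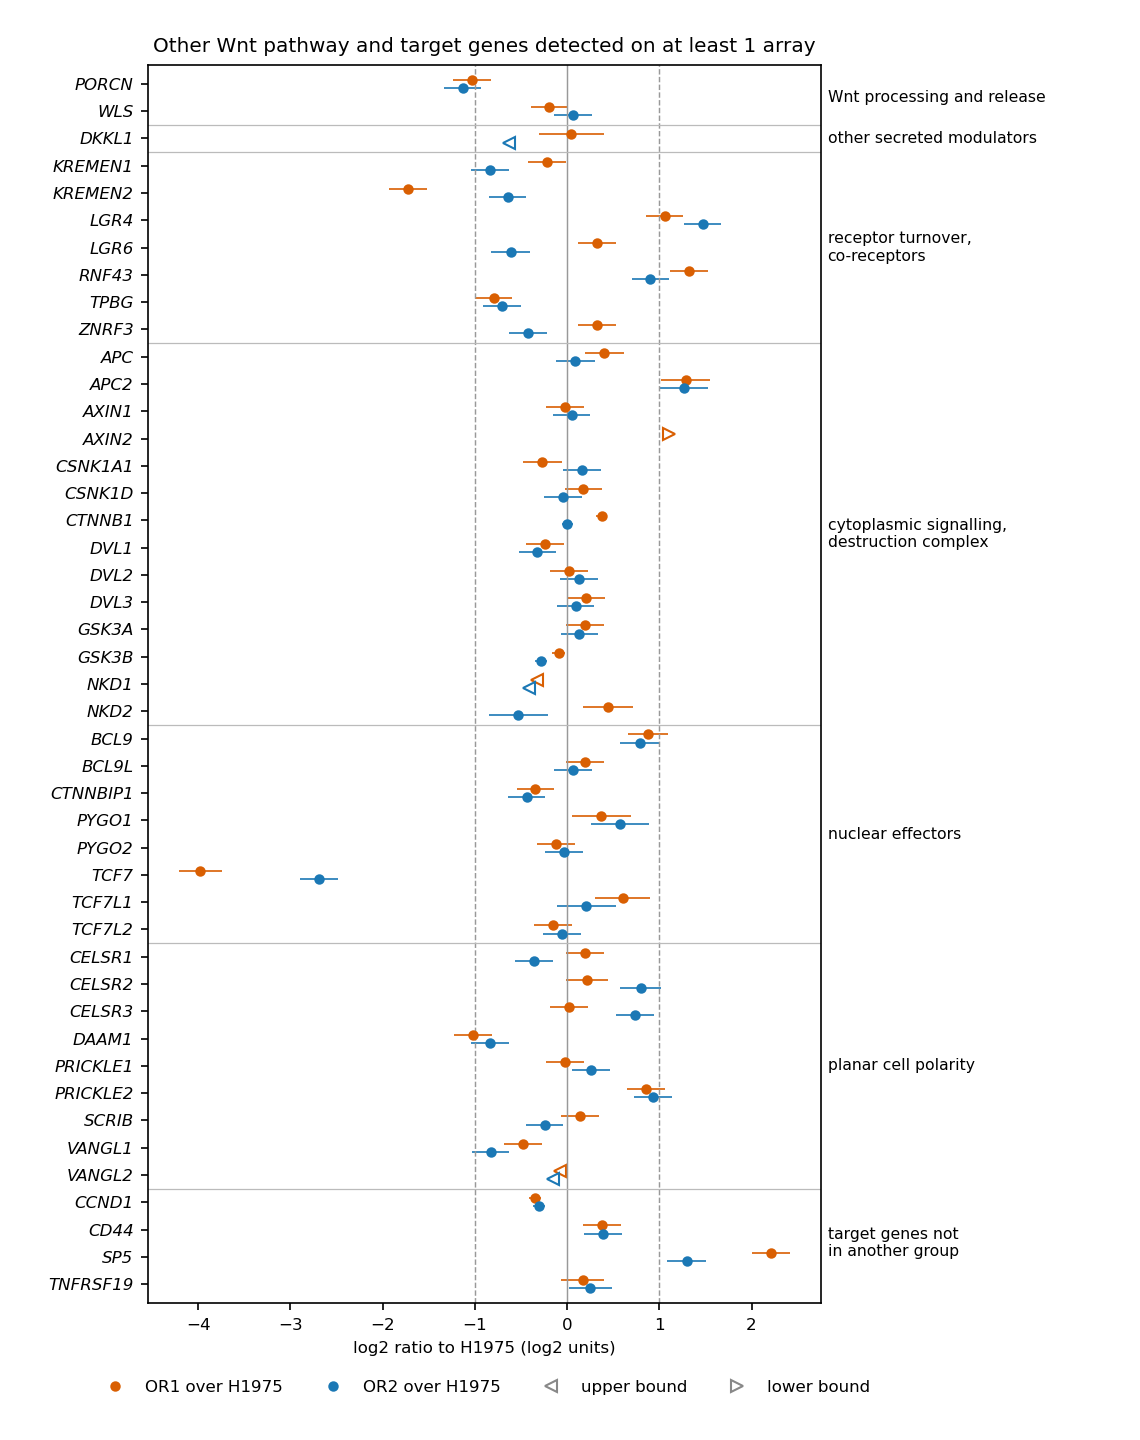
Log2 ratio of OR1 and OR2 to H1975 (x axis, log2 units) for the other Wnt pathway genes and β-catenin target genes detected on at least 1 array, grouped by role, with the technical SD as bars, open triangles for bounds and dashed lines at ratios of 2 and 0.5. TCF7 lies far to the left and SP5 to the right, and most of the cytoplasmic and nuclear effectors lie near 0.

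Most calls were lost when normexp background correction was used together with an offset of 50 added to every spot, 2 changes made at once. With it, PTK7 was at 1.71 and 1.54, WNT10A at 1.37 and 1.43 and ROR1 at 1.96 and 2.05, so none passed 2 in both lines. Under the same setting WNT9A stayed past 0.5, at no more than 0.486 and at 0.474, while WNT5A was at most 0.544 and at most 0.490, FZD1 at 0.686 and 0.633, FZD7 at 0.506 and 0.558 and WNT7B at 0.685 and 0.657. Scaling on 7 spike-in probes shifted all genes of OR1 by -0.60 on the log2 scale and took ROR1 to 1.41 and WNT10A to 1.43 in OR1, whereas PTK7 stayed at 2.22 and 3.16. With median scaling ROR1 was at 1.98 in OR1. No ratio of the family genes past 2 or 0.5 in either line changed direction under any of the alternatives.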

How the data were processed

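For each of the 3 lines the authors labeled RNA with Cy3 and hybridized it to 1 Agilent SuperPrint G3 Human array, all on 1 slide, so the slide could not be used as a block. The deposited scanner files hold the intensity of each spot with its error, after background and spatial correction by the scanner software and before any scaling between arrays. A deposited table holds normalized intensities, and its method is not given in the sources used here. Feature Extraction is named as version 9.5.1.1 in the submitters' processing notes and 10.7.1.1 in the file header.

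Each array was mapped to its line by its label. Control spots and outlier spots (45 to 61 per array) were left out, repeated spots were averaged, log2 intensities were reduced by the 75th percentile of the array, which lay at 157 in H1975, against 138 and 162 in OR1 and OR2, and the brightest probe stood for each gene (53 probes for the 43 genes, 8 of which had more than 1). Ratios of 2 and 0.5, the criteria of the methods, were applied without a test. The number of arrays limits the precision. Every gene of the family detected on an array is given its values, those past a ratio in either line are described with position, error and neighbours, and of the pathway and target lists those past it in both lines are named. The genes, the lists and these rules were chosen with earlier results of these data known. The counting code was run on simulated data with planted changes well past the criterion and with capped spot noise. That run does not cover calls near the criterion or near background. The 12 alternatives were quantile, median, spike-in and no scaling, normexp correction with an offset of 50, the authors' normalized intensities, detection on all 3 arrays, no background filter, outlier spots kept, the median over probes, and ratios of 1.5 and 4 with their inverses. Promoters and symbols came from RefSeq (GRCh38.p14), and probe positions, on hg19, from the files. Python 3.11.15, numpy 2.4.6, pandas 2.3.3, matplotlib 3.10.9, R 4.3.3 and limma 3.58.1 were used.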

Additional observations from a re-analysis of the deposited data

Results flagged for a closer look

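With the main scaling, 3 of the detected pathway genes lay above H1975 in OR1 and below it in OR2, each by more than its technical SD. Whether the lines differ was not tested. LGR6, an R-spondin receptor, was at 124.9 in H1975 against 137.3 in OR1 and 84.0 in OR2, with ratios of 1.25 and 0.655 and an OR2 to OR1 ratio of 0.522. ZNRF3, a ubiquitin ligase that removes Frizzled receptors, was at 1932, 2116 and 1478, with ratios of 1.25 and 0.745 and an OR2 to OR1 ratio of 0.596. NKD2, an inhibitor that binds Dishevelled, was at 33.1, 39.5 and 23.6, with ratios of 1.36 and 0.694 and an OR2 to OR1 ratio of 0.510. None of the 3 passed a ratio of 2 or 0.5 in either line. Their OR1 log2 ratios of 0.33, 0.32 and 0.44 depend on the scaling. Without scaling, all genes of OR1 shift by -0.19, which brings these 3 within their technical SD of H1975. With spike-in scaling the shift is -0.60, which puts them below H1975 in OR1 as well. Of the ligands, receptors and antagonists themselves, 2 (LRP5 and WNT10B) lay on opposite sides of H1975, and 0 of these did so by more than the technical SD in both lines.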

How the results depend on the processing

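The main counts were 3 family genes higher in both lines, 5 lower in both lines and 1 differing at least 2-fold between OR1 and OR2, with 2 pathway genes higher and 2 lower. Without scaling, 1 family gene (PTK7) and 1 pathway gene (APC2) were higher, and with median scaling 2 family genes (PTK7 and WNT10A) and 1 pathway gene (APC2) were, as ROR1 was at 1.98 in OR1. With spike-in scaling, 1 family gene was higher (PTK7), 3 were lower (FZD1, WNT5A and WNT9A), 4 differed between the lines (DKK1, FZD4, WNT11 and WNT3), 0 pathway genes were higher, and the median log2 ratio of the family in OR1 was -0.46 in place of 0.14. Spike-in scaling also took the share of higher genes among all genes called in both lines from 44.6% to 27.6%. With normexp correction, 0 family genes were higher, 1 was lower (WNT9A), 0 differed between the lines, 0 pathway genes were higher and the target gene SP5 was at 1.84 in OR2, and over all genes 461 were higher and 705 lower in place of 1141 and 1417. Detection on all 3 arrays left 3 lower and 0 differing, as WNT5A, WNT9A and WNT11 were then not counted. Without a background filter 5 differed between the lines and 4 pathway genes were lower, and all genes called numbered 2057 and 2437. A ratio of 1.5 gave 5 higher, 9 lower and 5 differing family genes with 5 higher and 5 lower pathway genes, and a ratio of 4 gave 0, 2 and 0 with 0 and 1. Quantile normalization and the authors' normalized intensities left 1 pathway gene lower (TCF7), and changed no count of family genes. WNT7B was not counted as lower without scaling or with the median over probes, which gave 4 lower family genes each. Where no construction is named, the cause was not tested.

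Of 305 ratios of named genes under the alternatives, 262 moved by less than 1 technical SD and 43 by more, 22 of them under normexp correction and 15 under spike-in scaling, and 0 changed direction. Many of these outcomes were fixed by construction, so the counts do not measure how stable the ratios are. Median scaling and no scaling shift all OR1 genes alike, by -0.11 and -0.19 in log2, less than any technical SD here. The spike-in shift of -0.60 exceeds each OR1 technical SD, so every OR1 ratio followed had to move. The median over probes leaves genes with 1 probe unchanged, and the background settings leave genes detected on all arrays unchanged. RNF43, AXIN2, KREMEN2, DAAM1, LGR6, ZNRF3 and NKD2 were not among the named genes followed this way. No paired analysis was possible because each line has 1 array, and for the same reason no replicate could be left out. Signal over background limits WNT5A, WNT7A, WNT9A, WNT10A, WNT11, WNT2B and PTK7, whose dimmer line lay between 2.73 and 24.6.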
